A study of Mus musculus with 15 samples.

Results

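The opioid genes described here are 7 of the 45777 gene symbols listed for each library: the peptide precursors Penk, Pdyn and Pnoc and the receptors Oprm1, Oprk1, Oprd1 and Oprl1. They were taken by symbol, and all 7 passed the filter on low counts. Messenger RNA of mouse brain was sequenced in 5 groups of 3 libraries, 4 of which received MPTP, a toxin that damages dopamine neurons, at 20 mg/kg/day by intraperitoneal injection for 1 week. The low-dose and high-dose inhibitor groups then received an inhibitor of BTK (Bruton tyrosine kinase, a kinase of B cells and microglia) for 4 weeks at 1 or 2 µg/kg/day, which other labels write as BTK at 25 or 50 pM. The levodopa group received levodopa, the precursor of dopamine, at 2 mg/kg/day for 4 weeks, by a route given both as oral and as intraperitoneal. The MPTP-only group returned to a normal diet for 4 weeks. The control group had a normal diet for 5 weeks and no MPTP. All groups first had 7 days of stabilization, and the labelled time is 6 weeks in each. The protocol gives 8 mice per group. The sources used here give no brain region and no strain, sex or age of the mice. Nor do they tie each library to its own mouse, so a p-value measures the spread among these libraries, which may be technical.

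Opioid peptides are cut from larger precursor proteins: enkephalins from the product of Penk, dynorphins from that of Pdyn and nociceptin from that of Pnoc. Their receptors couple to inhibitory G proteins, which lower cyclic AMP and open potassium channels. In the striatum, Penk is a marker of projection neurons of the indirect pathway and Pdyn of the direct pathway, and both are widely studied after loss of dopamine.

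The 6 inhibitor libraries held 58149722 to 61998459 counted reads each, and the other 9 held 63314658 to 68257095. Levels below are CPM, read counts relative to library size after TMM scaling. TMM scales each library by a factor common to all its genes, so it does not adjust for differences in regional content. By this scale 3 reads were at most 0.0525 CPM. Gene lengths were not used, so levels are compared between libraries and not between genes. Regional markers differed between libraries of one group. The summed level of 6 cerebellar markers was 3803 CPM in levodopa library 2 and 4691 CPM in control 2, against 15.8 to 116.5 CPM in the other 13 libraries. The summed level of 12 markers of striatal projection neurons was 1500 to 1916 CPM in low-dose libraries, 732.8 to 1664 CPM in high-dose libraries, 346.9 to 561.2 CPM in levodopa libraries and 379.7 to 446.8 CPM in MPTP-only libraries. In controls 1, 2 and 3 the striatal sum was 3132, 381.1 and 570.4 CPM. In bulk tissue, unequal shares of brain regions, fewer cells of a type and less RNA per cell cannot be told apart.

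Penk rose with the low dose of the inhibitor, to 366.8 ± 73.7 CPM, against 51.8 ± 17.6 CPM after MPTP alone (SD, n = 3 each). It was the only member past the threshold (edgeR adjusted p below 0.05) in any of the 8 comparisons, which gave 56 tests. Thus 1 of 7 members rose in that comparison, where 4.78% of the 21821 genes tested rose, and 0 of 7 fell, where 3.75% of genes fell (8.53% in either direction). DESeq2 also called 1 member, Penk, where it called 14.3% of genes. The library values of low-dose and MPTP-only groups did not overlap for 5 of 7 members, against 40.8% of all genes. Penk, Pdyn and Oprd1 were higher in every low-dose library, and Oprm1 and Oprl1 were lower. The median log2 fold change of the members was -0.19, and that of all genes was 0.

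**Figure D1:**
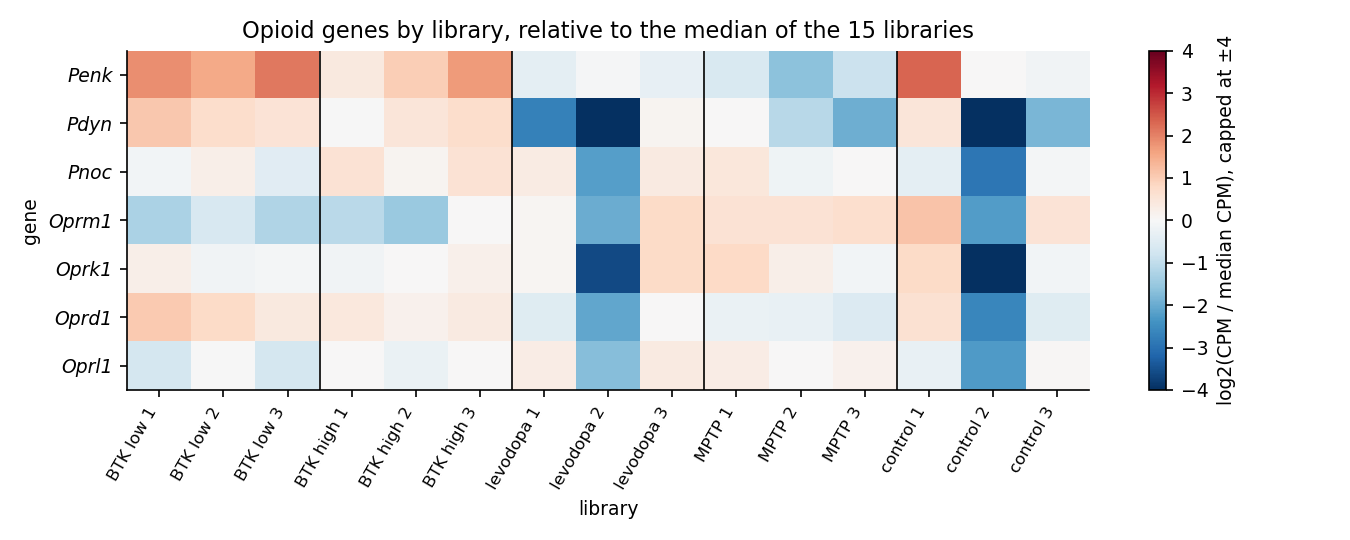
Level of each opioid gene (rows) in each of the 15 libraries (columns, with lines between groups), as log2 of CPM over the gene's median CPM of all libraries, with colour capped at 4 in either direction. Levodopa 2 and control 2 are blue for the 6 members other than Penk, and Penk is red in control 1 and all 6 inhibitor libraries.

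Penk lies on chromosome 4, 4133536 to 4138815 in GRCm38.p6. It had 370.5, 291.4 and 438.6 CPM in low-dose libraries 1, 2 and 3 and 132.5, 201.1 and 330.4 CPM in high-dose libraries 1, 2 and 3. It had 77.1, 99.0 and 81.2 CPM in levodopa libraries 1, 2 and 3, against 66.8, 32.4 and 56.2 CPM in MPTP-only libraries and 514.4, 102.0 and 92.5 CPM in controls. All 6 inhibitor libraries lay above all levodopa and MPTP-only libraries and above controls 2 and 3, but control 1 lay above every other library. By mean level the groups ran low dose, control, high dose, levodopa and MPTP alone. Neighbours in this order overlapped except high dose against levodopa and levodopa against MPTP alone.

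**Figure D2:**
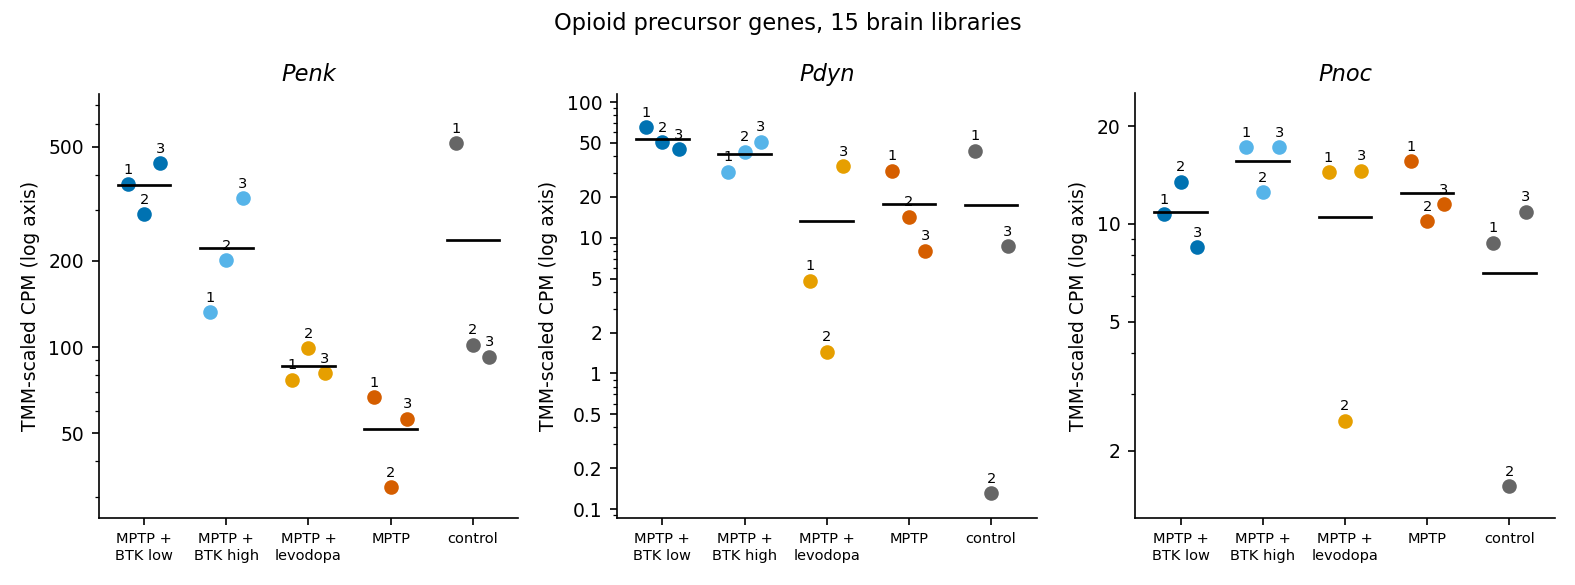
Level of Penk, Pdyn and Pnoc in TMM-scaled CPM (log axes) by group, with 1 point per library labelled by its replicate number and a bar at the group mean of 3 libraries. For Penk, every inhibitor library lies above every MPTP-only library, and control 1 at 514.4 CPM stands apart from controls 2 and 3. For Pdyn and Pnoc the lowest points are levodopa 2 and control 2.

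Against MPTP alone, the log2 fold change of Penk with the low dose was 2.82 (SE 0.60, edgeR adjusted p = 0.0163), which is 7.08-fold higher. It lost the call without MPTP-only library 2 (edgeR adjusted p = 0.0828), without MPTP-only library 3 (0.0703) and without low-dose library 3 (0.056). Its log2 fold change in these fits was 2.57, 2.9 and 2.68. They called 421, 426 and 627 of all genes, against 1861 with every library. With the high dose Penk was higher in all 3 libraries, by 2.1 on the log2 scale (SE 0.58), and did not pass (edgeR adjusted p = 0.0842). It passed by DESeq2 (adjusted p = 0.00615), in an edgeR fit of these groups alone (0.014) and without both cerebellum-rich libraries (0.0275), which called 7.28%, 17.5% and 11.1% of all genes. With levodopa all 3 libraries were also higher, by 0.73 on the log2 scale (SE 0.56, edgeR adjusted p = 0.954), within the spread. These comparisons share the MPTP-only libraries.

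Several region markers, like Penk, were higher in inhibitor than in MPTP-only libraries. Of the 12 striatal markers, 3 rose and 0 fell with the low dose against MPTP alone, with a median log2 fold change of 1.99, and with the high dose 0 passed, with a median of 1.45. No striatal marker had 0 reads in all 3 libraries of a group, but in control 2 Gpr6 and Six3 had 0.0 CPM. The 7 libraries with the most Penk were the 7 with the highest striatal sum. Of 8 cortical and hippocampal markers, 4 rose with the low dose and 2 with the high dose, and their sum was 261.5 to 329.0 CPM in low-dose and 118.0 to 296.4 CPM in high-dose libraries, against 57.3 to 93.9 CPM in MPTP-only libraries. Of 6 choroid plexus markers, 3 rose with the low dose and 2 with the high dose, with sums of 898.8 to 1408 CPM and 292.7 to 1470 CPM, against 11.4 to 22.8 CPM. In controls 1, 2 and 3, with 514.4, 102.0 and 92.5 CPM of Penk, the cortical and hippocampal sum was 66.8, 191.8 and 79.1 CPM. In control 2, Neurod2 (121.3 CPM) and Prox1 (60.9 CPM) made up most of that sum, while Neurod6 had 7.02 CPM. The choroid plexus sum in controls 1, 2 and 3 was 66.7, 117.9 and 925.5 CPM. The part of these markers in the Penk result was not tested.

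**Figure D3:**
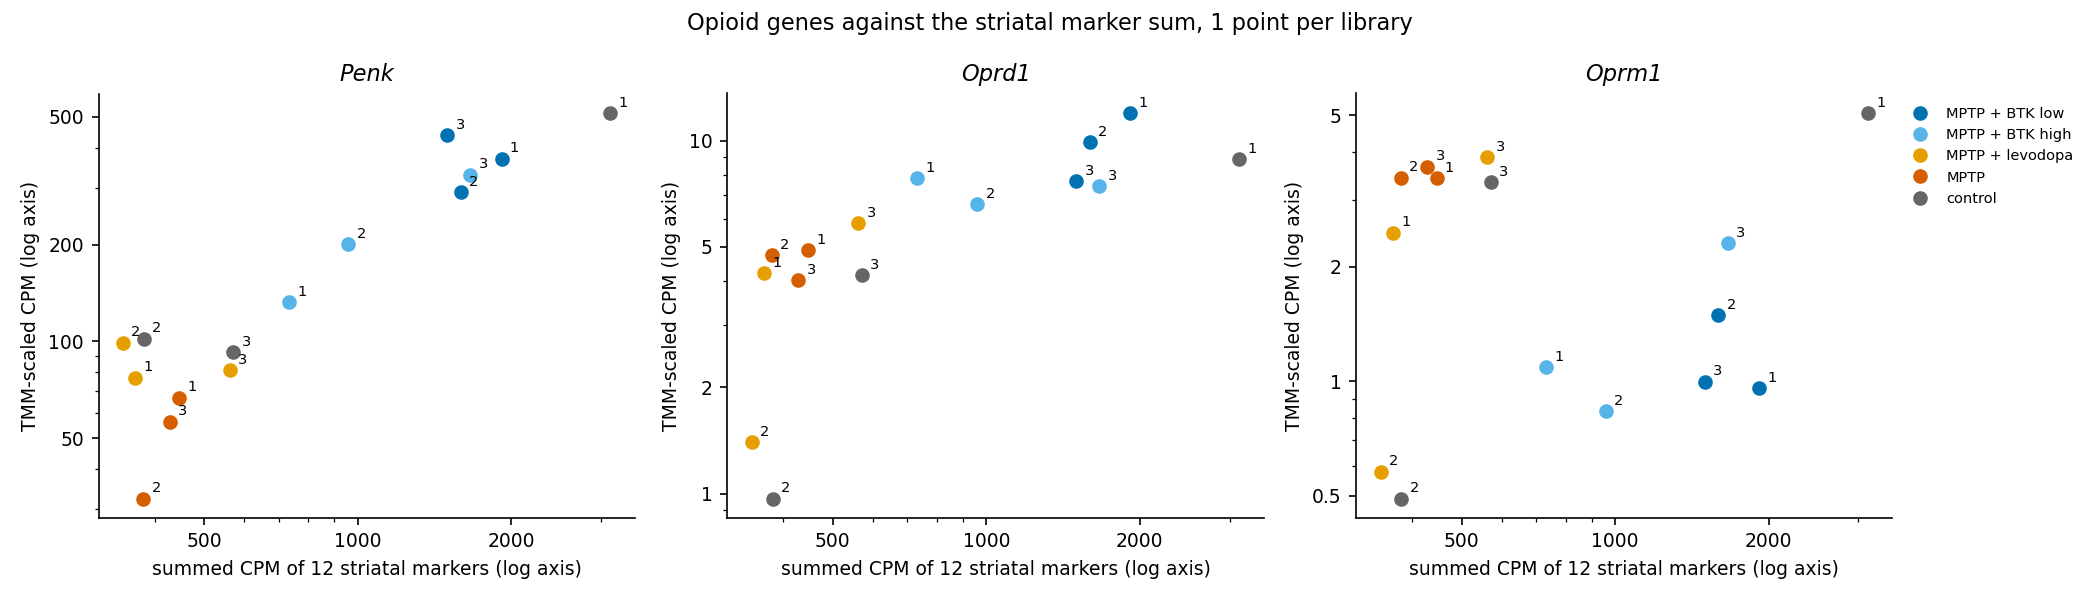
Level of Penk, Oprd1 and Oprm1 (vertical, TMM-scaled CPM, log axis) against the summed CPM of 12 striatal markers (horizontal, log axis), with 1 point per library coloured by group and labelled by replicate number. The 7 libraries with a striatal sum of 732.8 CPM or more are the highest 7 for Penk and for Oprd1, while for Oprm1 the 6 inhibitor libraries lie at 0.834 to 2.31 CPM and control 1 at 5.08 CPM.

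Against controls, the values of Penk turned on control 1, whose striatal sum was also above that of every other library. MPTP-only libraries were all lower than all controls, with a log2 value of -2.19 (SE 0.59) that did not pass (edgeR adjusted p = 0.717) but was called by DESeq2 (adjusted p = 0.0414). Without control 1 it was -0.91 (edgeR adjusted p = 0.54). With the low dose the log2 fold change against controls was 0.63 (SE 0.56, edgeR adjusted p = 0.518), and without control 1 it was 1.91 and passed (0.0205), as did 6.45% of genes. With the high dose it was -0.09 (SE 0.56, edgeR adjusted p = 0.94), and without control 1 it turned to 1.19 (0.119). With levodopa it was -1.46 (SE 0.57, edgeR adjusted p = 1.0), and without control 1 it was -0.18.

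Pdyn lies on chromosome 2, 129686549 to 129699938, on the minus strand. Its promoter is shown, and that of Oprd1 below, because these were the members beside Penk with higher values in every low-dose than every MPTP-only library. The sequences are RefSeq's, in build GRCm38.p6, from 250 bases before to 50 after the gene's start, and 4 of the 7 members have an entry in the table used. The Pdyn window is chr2:129699889-129700188, written 5′ to 3′ on the minus strand.
Pdyn: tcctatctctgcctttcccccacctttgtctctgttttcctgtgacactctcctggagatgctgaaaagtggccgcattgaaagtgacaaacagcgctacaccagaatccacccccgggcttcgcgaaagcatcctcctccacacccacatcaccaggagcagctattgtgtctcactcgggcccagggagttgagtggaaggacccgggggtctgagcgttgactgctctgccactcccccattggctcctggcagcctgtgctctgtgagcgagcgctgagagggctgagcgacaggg
Both strands were searched for the full cyclic AMP response element, TGACGTCA, and for its shorter form, TGACG, which the full one contains. The search also covered the sites that AP-1 factors are known to bind, TGANTCA. It further covered the E-box of basic helix-loop-helix factors, CACGTG, and the core promoter element named the TATA box, TATAAA. No match was in this window, so it has no capitals. Of the 32851 promoters of the table, 1.79% hold TGACGTCA, 20.8% TGACG, 7.81% TGANTCA, 7.15% CACGTG and 13.6% TATAAA.

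Pdyn had 65.2, 50.4 and 45.0 CPM in low-dose libraries 1, 2 and 3 and 30.7, 43.2 and 51.1 CPM in high-dose libraries 1, 2 and 3. It had 4.82, 1.45 and 33.7 CPM in levodopa libraries, against 31.1, 14.3 and 8.02 CPM in MPTP-only libraries and 43.8, 0.131 and 8.67 CPM in controls. The inhibitor libraries spanned 30.7 to 65.2 CPM, while values within each other group lay far apart, and control 2 had 8 reads. By mean the order was low dose, high dose, MPTP alone, control and levodopa, and all neighbours overlapped.

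Against MPTP alone, the log2 fold change of Pdyn was 1.59 with the low dose (SE 1.27, edgeR adjusted p = 0.473) and 1.22 with the high dose (SE 1.26, adjusted p = 0.669), neither beyond the spread. Without MPTP-only library 1 these were 2.27 and 1.91, again short of the threshold. In an edgeR fit of low-dose and MPTP-only libraries alone it passed (adjusted p = 0.0264), as did 20.8% of genes and 4 of the 7 members. With levodopa it was -0.42 (SE 1.25, edgeR adjusted p = 0.966), and for MPTP alone against controls it was 0.02 (SE 1.24, adjusted p = 0.996). Every low-dose library was above every control, at 53.6 ± 10.5 CPM against 17.5 ± 23.1 CPM (SD, n = 3 each). That log2 fold change was 1.61 (SE 1.27, edgeR adjusted p = 0.462), and 3.61 without control 1. The striatal sum moved with Pdyn too, since 6 of the 7 libraries with the most Pdyn were among the 7 with the highest striatal sum. Its part was not tested.

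Pnoc lies on chromosome 14, 65400673 to 65425564. It had 10.7, 13.5 and 8.49 CPM in low-dose libraries 1, 2 and 3 and 17.2, 12.5 and 17.2 CPM in high-dose libraries 1, 2 and 3. It had 14.4, 2.48 and 14.6 CPM in levodopa libraries, against 15.6, 10.2 and 11.5 CPM in MPTP-only libraries and 8.76, 1.56 and 10.9 CPM in controls. Outside levodopa 2 and control 2, the nociceptin precursor stayed between 8.49 and 17.2 CPM. By mean the order was high dose, MPTP alone, low dose, levodopa and control, and all neighbours overlapped.

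All high-dose libraries had more Pnoc than all controls, at 15.6 ± 2.73 CPM against 7.07 ± 4.89 CPM (SD, n = 3 each). Their difference of 1.14 on the log2 scale (SE 0.64, edgeR adjusted p = 0.329) did not pass, and it was 0.67 without control 2. Against MPTP alone it was -0.19 with the low dose (SE 0.63, edgeR adjusted p = 0.886), 0.33 with the high dose (SE 0.63, adjusted p = 0.838) and -0.24 with levodopa (SE 0.63, adjusted p = 0.962). The markers of GABAergic interneurons, among which nociceptin neurons are found, summed to 928.4 to 1016 CPM with the low dose, 1020 to 1090 CPM with the high dose and 897.7 to 1157 CPM with levodopa. Their sum was 818.3 to 1063 CPM after MPTP alone and 1099 to 1252 CPM in controls. Gad1 and Gad2 made up most of it, so it says little of the other markers. Of the 6 markers, 1 rose and 0 fell with each dose against MPTP alone. Their median log2 fold change was 0.71 with the low dose and 0.59 with the high dose.

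Oprm1 encodes the mu receptor, the main target of morphine, and lies on chromosome 10, 6758593 to 7038209. It had 0.961, 1.49 and 0.998 CPM in low-dose libraries 1, 2 and 3, from 57 to 92 reads, and 1.09, 0.834 and 2.31 CPM in high-dose libraries 1, 2 and 3. It had 2.46, 0.579 and 3.89 CPM in levodopa libraries, against 3.42, 3.43 and 3.67 CPM in MPTP-only libraries and 5.08, 0.492 and 3.34 CPM in controls. All 6 inhibitor libraries, at 0.834 to 2.31 CPM, lay below the 7 other libraries that were not rich in cerebellar markers, at 2.46 to 5.08 CPM. By mean the order was MPTP alone, control, levodopa, high dose and low dose, and all neighbours overlapped.

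**Figure D4:**
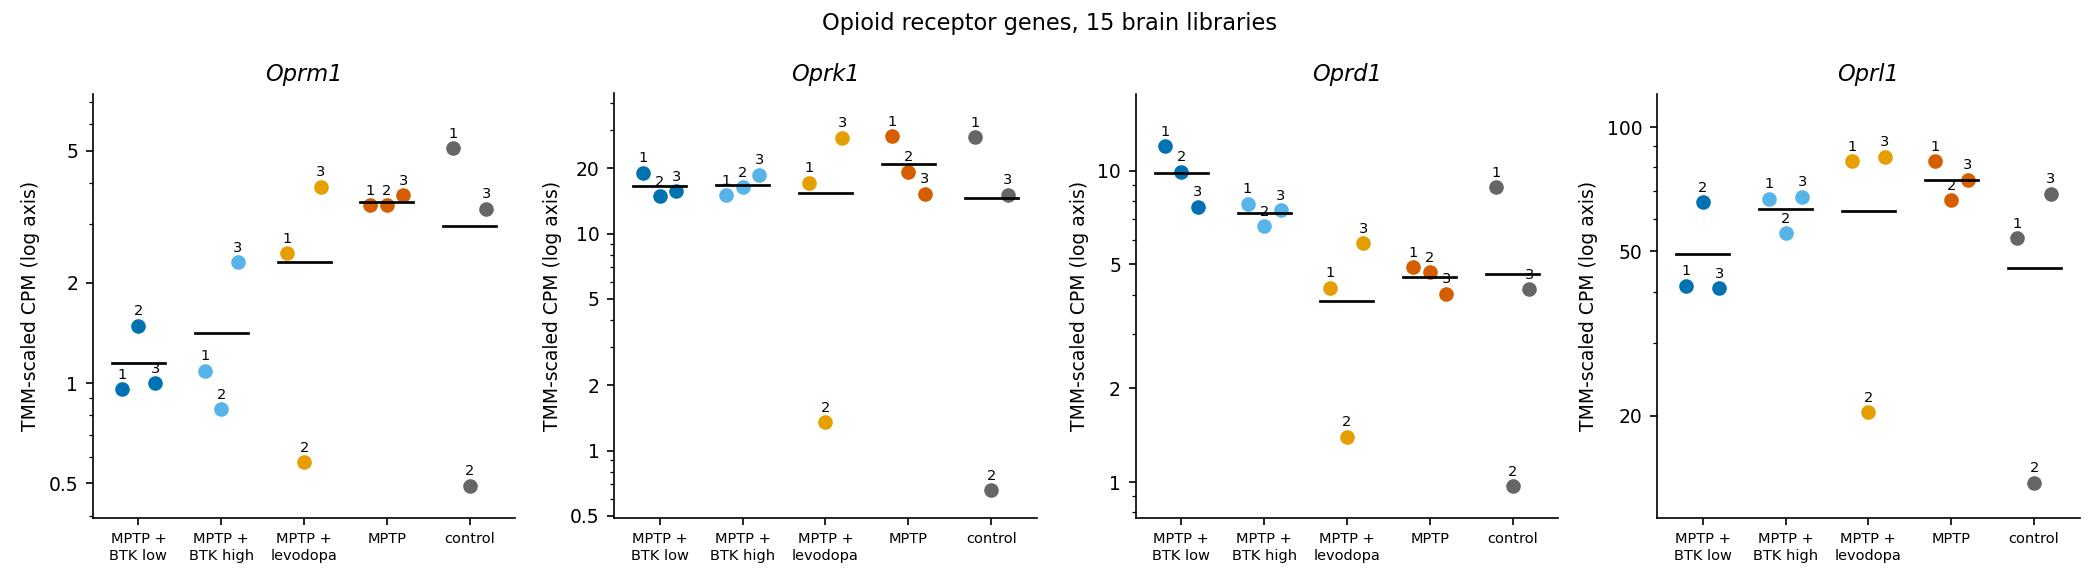
Level of Oprm1, Oprk1, Oprd1 and Oprl1 in TMM-scaled CPM (log axes) by group, with 1 point per library labelled by its replicate number and a bar at the group mean of 3 libraries. Inhibitor libraries lie below the MPTP-only libraries for Oprm1 and above them for Oprd1, and levodopa 2 and control 2 are the lowest points for all 4 receptors.

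Against MPTP alone, the log2 fold change of Oprm1 was -1.60 with the low dose (SE 0.74, edgeR adjusted p = 0.192) and -1.31 with the high dose (SE 0.73, adjusted p = 0.37), and neither passed although no library values overlapped. Without both cerebellum-rich libraries these passed (edgeR adjusted p = 0.00868 and 0.0367), where 23.7% and 11.1% of genes did. They also passed in edgeR fits of the compared groups alone (adjusted p = 0.0031 and 0.0438), where 20.8% and 17.5% of genes did. Against controls the log2 fold change with the low dose was -1.37 (SE 0.73, edgeR adjusted p = 0.271), and -1.88 without both cerebellum-rich libraries, which passed (0.0174), as did 8.33% of genes. With levodopa against MPTP alone it was -0.60 (SE 0.72, edgeR adjusted p = 0.954). The summed level of 6 thalamic markers was 170.9 to 313.8 CPM with the low dose and 227.5 to 552.5 CPM with the high dose, against 583.4 to 975.8 CPM after MPTP alone. The sum of 6 medial habenula and interpeduncular markers was 17.6 to 50.1 CPM and 20.0 to 57.4 CPM with these doses, against 44.6 to 101.3 CPM. None of these 12 markers passed the test in the low-dose or high-dose comparison with MPTP alone, and their part in the Oprm1 values was not tested.

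Oprd1 encodes the delta receptor, which binds enkephalins, and lies on chromosome 4, 132110188 to 132144486. Its promoter window is chr4:132144437-132144736, written 5′ to 3′ on the minus strand, with the E-box letters CACGTG in capitals, from base 165 of the window.
Oprd1: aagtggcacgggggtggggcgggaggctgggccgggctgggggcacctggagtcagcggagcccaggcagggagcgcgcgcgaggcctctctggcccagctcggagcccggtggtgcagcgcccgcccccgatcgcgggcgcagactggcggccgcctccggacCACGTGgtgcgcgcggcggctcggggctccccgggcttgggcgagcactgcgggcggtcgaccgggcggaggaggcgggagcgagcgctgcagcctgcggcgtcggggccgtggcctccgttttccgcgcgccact
No other searched motif was in this window, and a match is a description of these letters only.

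Oprd1 had 12.0, 9.92 and 7.67 CPM in low-dose libraries 1, 2 and 3 and 7.84, 6.62 and 7.45 CPM in high-dose libraries 1, 2 and 3. It had 4.21, 1.40 and 5.85 CPM in levodopa libraries, against 4.90, 4.73 and 4.03 CPM in MPTP-only libraries and 8.85, 0.968 and 4.16 CPM in controls. All inhibitor libraries were above all levodopa and MPTP-only libraries, and control 1 lay among them. By mean the order was low dose, high dose, control, MPTP alone and levodopa, and all neighbours overlapped.

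Against MPTP alone, the log2 fold change of Oprd1 was 1.12 with the low dose (SE 0.60, edgeR adjusted p = 0.266) and 0.68 with the high dose (SE 0.60, adjusted p = 0.605), and neither passed. In edgeR fits of the compared groups alone both passed (adjusted p = 0.0064 and 0.0234), where 20.8% and 17.5% of genes did. The low dose also passed without both cerebellum-rich libraries (edgeR adjusted p = 0.0113), where 23.7% of genes did. With levodopa it was -0.25 (SE 0.60, edgeR adjusted p = 0.96). The 7 libraries with the most Oprd1 were those with the highest striatal sum, and the part of striatal RNA was not tested.

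Oprk1 encodes the kappa receptor, which binds dynorphins, and lies on chromosome 1, 5588450 to 5606134. It had 19.1, 14.9 and 15.7 CPM in low-dose libraries 1, 2 and 3 and 15, 16.4 and 18.7 CPM in high-dose libraries 1, 2 and 3. It had 17.2, 1.35 and 27.7 CPM in levodopa libraries, against 28.2, 19.3 and 15.3 CPM in MPTP-only libraries and 27.8, 0.657 and 15.1 CPM in controls. The inhibitor libraries had the narrowest range, and every group overlapped its neighbours in the order of means, MPTP alone, high dose, low dose, levodopa and control. Against MPTP alone the log2 fold change was -0.34 with the low dose, -0.33 with the high dose and -0.44 with levodopa (SE 0.96 in each), with edgeR adjusted p of 0.863, 0.902 and 0.957.

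Oprl1 encodes the receptor of nociceptin and lies on chromosome 2, 181715000 to 181720985. It had 41.3, 65.7 and 40.7 CPM in low-dose libraries 1, 2 and 3 and 67.1, 55.4 and 67.9 CPM in high-dose libraries 1, 2 and 3. It had 82.7, 20.4 and 84.7 CPM in levodopa libraries, against 82.7, 66.6 and 74.6 CPM in MPTP-only libraries and 53.8, 13.8 and 69 CPM in controls. Low-dose libraries all lay below MPTP-only libraries, by a narrow margin for low-dose library 2. By mean the order was MPTP alone, high dose, levodopa, low dose and control, and all neighbours overlapped. The log2 fold change against MPTP alone was -0.60 with the low dose (SE 0.53, edgeR adjusted p = 0.523). It passed without both cerebellum-rich libraries (edgeR adjusted p = 0.0319), as did 23.7% of genes. With the high dose it was -0.23 (SE 0.53, edgeR adjusted p = 0.867) and with levodopa -0.25 (SE 0.53, adjusted p = 0.957).

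**Figure D5:**
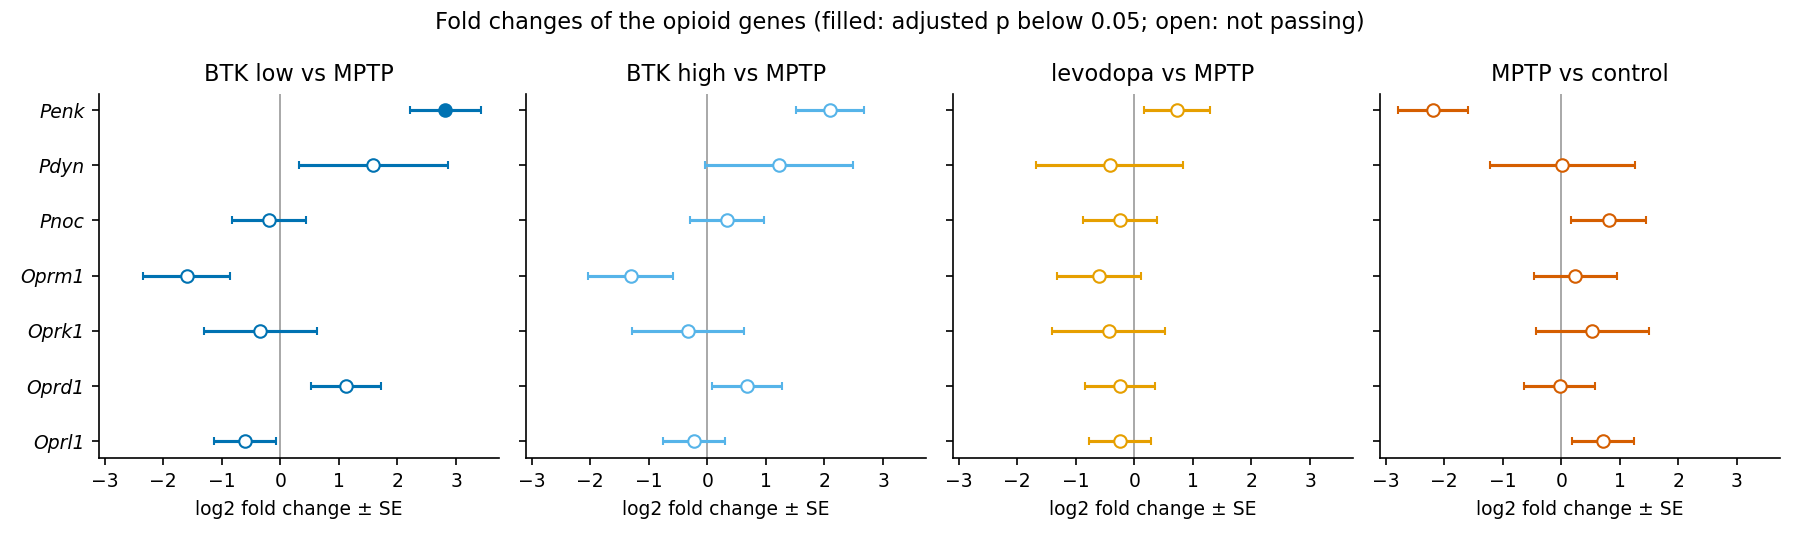
Log2 fold change of each opioid gene (rows) in 4 comparisons (panels), with bars of 1 SE from the edgeR fit, filled where the adjusted p was below 0.05. Only Penk with the low dose (2.82) is filled, and the bars of Pdyn (SE 1.24 to 1.27) are the widest.

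In the other comparisons no member passed, and the counts stood as follows. With the high dose against MPTP alone, 0 of 7 members passed, where 1.97% of all genes did. There 1 member had an unadjusted p below 0.05, as did 18.5% of genes, and 1 passed by DESeq2, as did 7.28%. In that comparison 3 of 7 members did not overlap, against 39.8% of genes. With levodopa against MPTP alone, 0 of 7 passed by edgeR or DESeq2, 0 had an unadjusted p below 0.05 (2.96% of genes), and edgeR called 0.0% and DESeq2 0.00607% of genes. There Penk alone did not overlap, 1 of 7 against 9.59% of genes. For MPTP alone against controls, edgeR called 0 of 7 members and 0.0% of genes, with 1 member at an unadjusted p below 0.05 (6.62% of genes) and 1 called by DESeq2, which called 0.22% of genes. Penk again was the 1 member not overlapping, against 13.0% of genes.

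The high dose against the low dose gave 0 of 7 members by edgeR or DESeq2, 0 with an unadjusted p below 0.05 (2.23% of genes) and 0 not overlapping, where edgeR called 0.0% of genes, DESeq2 called 0.0091% and 10.6% did not overlap. The log2 fold change of Penk between the doses was -0.73 (SE 0.56, edgeR adjusted p = 1.0), and that of the other members lay between -0.43 and 0.52. Against controls, 0 of 7 members passed with the low dose, where 5.4% of genes did, and 0 of 7 with the high dose, where 0.376% did, with 0 at an unadjusted p below 0.05 in both, against 24.4% and 20.0% of genes. DESeq2 called 0 members in both, and 12.4% and 7.19% of genes. The 1 member not overlapping was Pdyn with the low dose, against 26.2% of genes, and Pnoc with the high dose, against 27.4%. With levodopa against controls edgeR called 0 of 7 members and 0.0% of genes, DESeq2 called 0 members and 0.297% of genes, and Penk was the 1 with an unadjusted p below 0.05 (3.74% of genes). No member's values were separate there, against 6.43% of genes.

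The 2 libraries rich in cerebellar markers stood apart for 6 of the 7 members. Levodopa 2 and control 2 had the lowest levels of Pdyn, Pnoc and all 4 receptors. For Oprk1 these were 1.35 and 0.657 CPM, against 14.9 to 28.2 CPM in the other 13 libraries, and for Oprl1 20.4 and 13.8 CPM against 40.7 to 84.7 CPM. Penk differed from this, with 99.0 and 102.0 CPM and 6 of the other 13 libraries lower than control 2.

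Levels of some members varied together over the libraries, given here as Pearson r of log2 CPM with no test, since all values of a library share its composition. Pdyn and Oprd1 had r = 0.957 over 15 libraries and 0.865 over the 13 without levodopa 2 and control 2. Penk and Oprd1 had 0.539 and 0.839, and Penk and Oprl1 -0.161 and -0.724. Pnoc and its receptor gene Oprl1 had 0.947 and 0.653, while Pdyn and its receptor gene Oprk1 had 0.877 and 0.262.

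Among 13965 other genes with a mean of at least 1 CPM, those most alike to Penk were Lzts3 (r = 0.958), Ppp1r7 (0.955) and Ppp1ca (0.953), of which the last encodes a catalytic subunit of protein phosphatase. Most alike to Pdyn were Dbpht2 (0.989), Sp9 (0.987), a transcription factor of forebrain neurons, and Krt77 (0.986). For Pnoc they were Serpina3n (0.985), Magee2 (0.980) and Syngr3 (0.979), the last a protein of synaptic vesicles. For Oprm1 they were Plk4 (0.959), a kinase of centriole duplication, Gpr139 (0.950), an orphan receptor of the habenula, and Insyn2b (0.947). For Oprd1 they were Kcng3 (0.987), a potassium channel subunit, Neto1 (0.984), an auxiliary subunit of kainate receptors, and Cyp4f15 (0.983). For Oprl1 they were Slc7a3 (0.989), a transporter of basic amino acids, Impact (0.986) and Resp18 (0.986). For Oprk1 they were Scn3a (0.991), a sodium channel, Zcchc12 (0.985) and Efcab1 (0.983), and over the 13 libraries without levodopa 2 and control 2 their r was lower, at 0.776, 0.714 and 0.645. The r of the 3 genes named for Pnoc was also lower there, at 0.865, 0.784 and 0.844. For the other 5 members, the r of the named genes over the 13 libraries was 0.913 to 0.968.

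The wider opioid pathway was read from 35 genes in 3 lists, all of them tested. With the low dose against MPTP alone, 0 rose and 2 fell, where 4.78% of all genes rose and 3.75% fell, so the number that fell was near the background. The median log2 fold change of the 35 genes was 0.02, against 0 over all genes. None of 7 genes of precursor processing passed (median -0.01). Of 6 peptide-degrading genes, Lnpep, which encodes a membrane aminopeptidase, fell to 13.2 ± 5.66 CPM with the low dose, against 31.4 ± 9.0 CPM after MPTP alone (SD, n = 3 each), with a log2 difference of -1.25 (SE 0.35, edgeR adjusted p = 0.045). Of 22 genes of receptor partners and signalling, Adcy8, a calcium-stimulated adenylyl cyclase, fell to 23.8 ± 4.74 CPM with the low dose, against 45.3 ± 4.93 CPM (SD, n = 3 each), with a log2 difference of -0.93 (SE 0.20, edgeR adjusted p = 0.0176). Lnpep was also lower with the low dose than in controls, where it had 46.6 ± 18.3 CPM (log2 fold change -1.82, SE 0.35, edgeR adjusted p = 0.0196). In the other 6 comparisons 0 of 35 genes passed by edgeR, with 0 to 5 at an unadjusted p below 0.05. The 5 were with the high dose against MPTP alone, where 18.5% of all genes had such a p. In the signalling list, Rgs9 and Adcy5 are also striatal markers.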

How the data were processed

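Brain RNA libraries (TruSeq stranded mRNA, per the labels' protocols) were deposited by the authors as raw read counts per gene, the unit used here. The submitters' processing notes name bcl2fastq 2.20.0, Trimmomatic, HISAT2 2.1.0, StringTie 2.1.3b and GRCm38/mm10, while annotation and strand setting of the counting were not given in the sources used here. Counts were fitted with edgeR 4.0.16 (R 4.3.3, quasi-likelihood, TMM, filterByExpr) in 1 fit of all 15 libraries, with Benjamini-Hochberg adjustment over 21821 genes and a threshold of 0.05. The fit was checked on simulated counts that shared a mean profile, apart from fold changes set in the low-dose group. They held no libraries of unlike regional content, so the check does not cover that setting. Levels are CPM from TMM-scaled counts, and coordinates and promoters are RefSeq's.

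Groups came from the labels. No libraries of a group were near-identical. The members and gene lists were chosen with earlier results of these data known. All 7 members were described in every comparison, up to 4 pathway genes past the threshold by smallest p, and the 3 genes most alike to each member by Pearson r. The labels do not say what the replicate number stands for. Deviations from group means correlated above 0.1 at every replicate number only for levodopa against control libraries (0.286, 0.801 and 0.368). Both of these groups have their cerebellum-rich library at replicate 2, so these values cannot show that the numbers pair libraries. The alternatives were DESeq2 1.42.0, RLE and upper-quartile scaling, other filters, a replicate block, fits of the compared groups alone, and fits without each library or both cerebellum-rich libraries. Marker lists of midbrain dopamine, hypothalamic and hindbrain neurons were also summed.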

Additional observations from a re-analysis of the deposited data

How the results depend on the processing

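Penk with the low dose against MPTP alone kept its direction in every alternative, while its call was lost without some single libraries. Leaving out 1 library at a time gave 0 to 1 members called in that comparison. The count was 0 without MPTP-only library 2, MPTP-only library 3 or low-dose library 3. Those fits called 421, 426 and 627 of all genes, against 1861 with every library. Penk kept its call without MPTP-only library 1, low-dose library 1 or low-dose library 2, where 884, 1074 and 1300 genes were called. For the low dose against controls 0 to 1 members were called, with 1 (Penk) without control 1, where 6.45% of genes passed. In fits of the compared groups alone, 4 members passed with the low dose and 3 with the high dose against MPTP alone, where 20.8% and 17.5% of genes did. Without both cerebellum-rich libraries these counts were 4 and 2 (23.7% and 11.1% of genes), and 1 for the low dose against controls (8.33%). DESeq2 called 1 member, Penk, for the high dose against MPTP alone (7.28% of genes) and for MPTP alone against controls (0.22%). RLE scaling, upper-quartile scaling, no filter and a filter of 5 CPM in 3 libraries changed no member's call or direction, and Oprm1 did not pass that filter. The cause of these shifts was not tested.

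The replicate block changed no member's call. With it the log2 fold change of Oprd1 for MPTP alone against controls was 0.24, and that of Penk for the high dose against controls was 0.11, each opposite in sign to the value without the block.

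Without both cerebellum-rich libraries, 11 log2 fold changes turned in sign, none of them past the threshold. For MPTP alone against controls they were -0.57 for Pdyn, -0.27 for Oprm1 and -0.04 for Oprk1. For levodopa against MPTP alone they were 0.10 for Pdyn, 0.21 for Pnoc, 0.09 for Oprk1, 0.14 for Oprd1 and 0.16 for Oprl1. Against controls they were -0.38 for Oprk1 and -0.32 for Oprl1 with the low dose, and -0.37 for Oprk1 with the high dose.

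Leaving out 1 library at a time also turned signs, again of values short of the threshold. For MPTP alone against controls the log2 fold change ranged from -0.66 to 2.03 for Pdyn, -0.27 to 0.88 for Oprm1, -0.04 to 1.42 for Oprk1 and -0.52 to 0.83 for Oprd1. For levodopa against MPTP alone it ranged from -2.50 to 0.25 for Pdyn, -0.55 to 0.21 for Pnoc, -1.17 to 0.09 for Oprk1, -0.69 to 0.14 for Oprd1 and -0.52 to 0.16 for Oprl1. For levodopa against controls it ranged from -2.48 to 1.60 for Pdyn, -0.96 to 0.27 for Oprm1, -0.65 to 0.97 for Oprk1 and -0.78 to 0.58 for Oprd1. For the low dose it ranged from -0.37 to 0.02 for Pnoc against MPTP alone, and against controls from -0.38 to 1.08 for Oprk1 and -0.32 to 0.52 for Oprl1. For the high dose it ranged from -0.50 to 1.19 for Penk and -0.37 to 1.09 for Oprk1 against controls, and from -0.26 to 0.56 for Oprm1 and -0.08 to 0.13 for Oprk1 against the low dose. Without a turn in sign, that of Oprm1 ranged from -1.19 to -0.15 for levodopa against MPTP alone and from -1.88 to -0.73 for the low dose against controls.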

Other observations

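In the opioid pathway lists, 1 gene in each of 2 libraries stood far from all other libraries. These genes were chosen after their values were seen. Gprasp1, which encodes a sorting protein of G protein-coupled receptors, had 31.4 CPM in levodopa library 1, against 547.7 to 1333 CPM in the other 14 libraries. Its relatives Gprasp2 (433.1 CPM) and Armcx5 (23.3 CPM) lay within the ranges of the other libraries, 118.6 to 485.1 CPM and 14.4 to 28.9 CPM. Pomc, the precursor of beta-endorphin and of pituitary hormones, had 95.8 CPM in low-dose library 1, against 0.563 to 11.3 CPM in the other 14. The pituitary hormone genes Gh (2.87 CPM) and Prl (1.08 CPM) lay there within the ranges of the other libraries, 0.0 to 36.5 CPM and 0.0 to 6.25 CPM.

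The other marker lists also differed between groups. The sum of 6 midbrain dopamine neuron markers was 71.4 to 278.2 CPM with the low dose and 162.7 to 396.1 CPM with the high dose, against 466.3 to 691.0 CPM after MPTP alone and 150.3 to 463.9 CPM in controls. Of these markers 2 fell and 0 rose with the low dose against MPTP alone, and 0 passed for MPTP alone against controls by edgeR. In control 2, Aldh1a1 (212.6 CPM) made up most of the dopamine marker sum of 274.1 CPM, while Slc6a3 had 0.0 CPM. The sum of 8 hypothalamic markers was 0.66 CPM in levodopa 2 and 0.41 CPM in control 2, and 23.4 to 710.0 CPM in the other 13 libraries. Hindbrain markers summed to 0.236 to 1.82 CPM with the low dose and 7.65 to 20.2 CPM after MPTP alone.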
